A study of Mus musculus with 4 samples.

Results

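Cyclin-dependent kinase (CDK) inhibitors and the retinoblastoma family of pocket proteins form the brake on the step from G1 into S phase. Their genes were read by symbol in mouse CD4+ T cells: Cdkn1a, Cdkn1b, Cdkn2a, Cdkn2b, Cdkn2c, Cdkn2d, Rb1, Rbl1 and Rbl2, which are 9 of the 16142 genes in the RNA-seq table. RNA-seq of 4 libraries compared 2 of WT cells with 2 of R111A cells. R111A is a form of Regnase-1, the ribonuclease encoded by Zc3h12a, that the paracaspase MALT1 can no longer cleave, and the comparison asks what its expression changes in activated T cells. CD4+ T cells were purified from spleen without labelling them, sorted, and activated for 12 h by antibodies to CD3 (5 µg/mL) and CD28 (1 µg/mL). Unstimulated cells were not analysed here, so no value below is a change upon activation. FPKM, the deposited value, is a number of fragments scaled by transcript length and library size.

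The WT cells came from WT B6 mice. The R111A cells came from Cd4CreERT2 LSL-R111A fl/fl mice on the C57BL/6 background, in which Cre recombinase, expressed in T cells and activated by tamoxifen, removes a stop cassette from a transgene in the Rosa26 locus. The transgene then makes the mutant and EGFP from the strong CAG promoter, while both endogenous Zc3h12a alleles remain. Tamoxifen was given at 75 mg/kg for 5 days. The labels of all libraries, WT included, carry the same words on tamoxifen, which name both kinds of mice, so the WT mice appear to have received it too. They carried neither Cre nor the transgene, so effects of Cre or EGFP cannot be told apart from those of the mutant. The study used male and female mice aged 6 to 12 weeks, and the labels do not give the age or sex of those behind each library. The labels do not say that replicates came from separate animals, so p-values measure the spread between these samples, which may be technical. Among genes with a mean of 50 FPKM or more, the R111A pair was further apart than the WT pair (SD of the log2 ratio 0.316 and 0.124), whereas limma fits 1 variance per gene to both groups. Zc3h12a, which checks the labels, was at 16.97 and 15.72 FPKM in WT against 196.30 and 130.87 in R111A. It was higher in both libraries labelled R111A, and the values do not separate transgene from endogenous mRNA.

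As background, D-type cyclins with CDK4 or CDK6, and cyclin E with CDK2, phosphorylate the pocket proteins, which otherwise hold E2F factors in check and keep genes of DNA replication silent. INK4 inhibitors block CDK4 and CDK6, whereas the CIP/KIP inhibitors p21 and p27 act mainly on CDK2 complexes. In T cells, p27 is a mark of the resting state and is removed after activation, and p21 is the best known transcriptional target of p53. Of the pocket proteins, RBL2 (p130) prevails in resting cells as part of the DREAM complex, and RBL1 (p107), whose gene is itself an E2F target, comes up in cycling cells.

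Promoter sequences are shown for the pair of members at the ends of the range of fold changes, because each held a match to a motif of a factor known to act on it. RefSeq windows of GRCm38.p6, from 250 bases before to 50 after a transcript start, were at hand for 8 of the 9 genes, 11 windows in all. Matches to the E2F letters TTTCCCGC, TTTCGCGC, TTTGCCGC and TTTGGCGC on either strand are in capitals, as are those to a p53 element, which was taken as 2 adjoining p53 half-sites with at most 1 letter off. The half-site reads the same on both strands. The Rbl1 window lies at chr2:157204485-157204784 on the minus strand and the upstream Cdkn1a window at chr17:29090729-29091028 on the plus strand.
Rbl1: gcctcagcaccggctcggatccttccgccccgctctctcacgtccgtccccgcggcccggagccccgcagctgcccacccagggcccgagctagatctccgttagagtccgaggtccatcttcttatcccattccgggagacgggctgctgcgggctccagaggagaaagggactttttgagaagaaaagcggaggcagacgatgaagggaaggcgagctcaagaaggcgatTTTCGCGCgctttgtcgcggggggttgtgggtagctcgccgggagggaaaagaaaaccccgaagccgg
Cdkn1a: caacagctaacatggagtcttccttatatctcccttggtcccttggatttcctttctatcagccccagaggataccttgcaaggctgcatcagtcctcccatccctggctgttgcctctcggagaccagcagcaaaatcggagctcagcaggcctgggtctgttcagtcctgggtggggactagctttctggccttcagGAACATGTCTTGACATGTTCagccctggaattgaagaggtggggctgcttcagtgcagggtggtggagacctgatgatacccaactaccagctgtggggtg

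The E2F match in Rbl1, TTTCGCGC, begins 18 bases before the transcript start. Any of the 4 E2F words was found in 744 of 32851 windows of all genes (2.26%). Among the member windows, only those of Rbl1 and of the distal start of Cdkn2a, there as TTTCCCGC, held one. The p53 element in Cdkn1a begins 51 bases before the distal of its 2 starts, and 29 of the 32851 windows held one (0.0883%). A single p53 half-site was more common, in 8.36% of all windows. The motifs were chosen after the expression values had been seen, and a match is a description of the letters, not a binding site.

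Differences were tested with limma on log2(FPKM + 1) for the 9831 genes whose mean reached 1 FPKM, a scale that understates the change of low genes. A gene was called with a change of at least 2-fold and an adjusted p under 0.05. Across all genes, 838 were called higher in R111A (8.52%) and 820 lower (8.34%). By the adjusted p alone, 2088 (21.2%) were higher and 3152 (32.1%) lower. The split of the calls depended on scaling, with 580 higher and 1756 lower after rescaling to TPM. Of the 9 members, 7 passed the filter, each with more than 1 FPKM in every library. Among them 3 were called higher (Cdkn1a, Cdkn1b and Cdkn2c) and 1 lower (Rbl1). By the adjusted p alone, Rb1 and Cdkn2d were also higher, which makes 5 higher and 1 lower, and Rbl2 did not pass and turned sign after rescaling to TPM (0.22 to -0.07). Their median log2 fold change, over these 7, was 0.78, while that of all genes tested was -0.12. Since 2 libraries against 2 allow no two-sided p under 0.333 in an exact permutation test, these adjusted values rest on variance information that limma pools over genes.

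**Figure D1:**
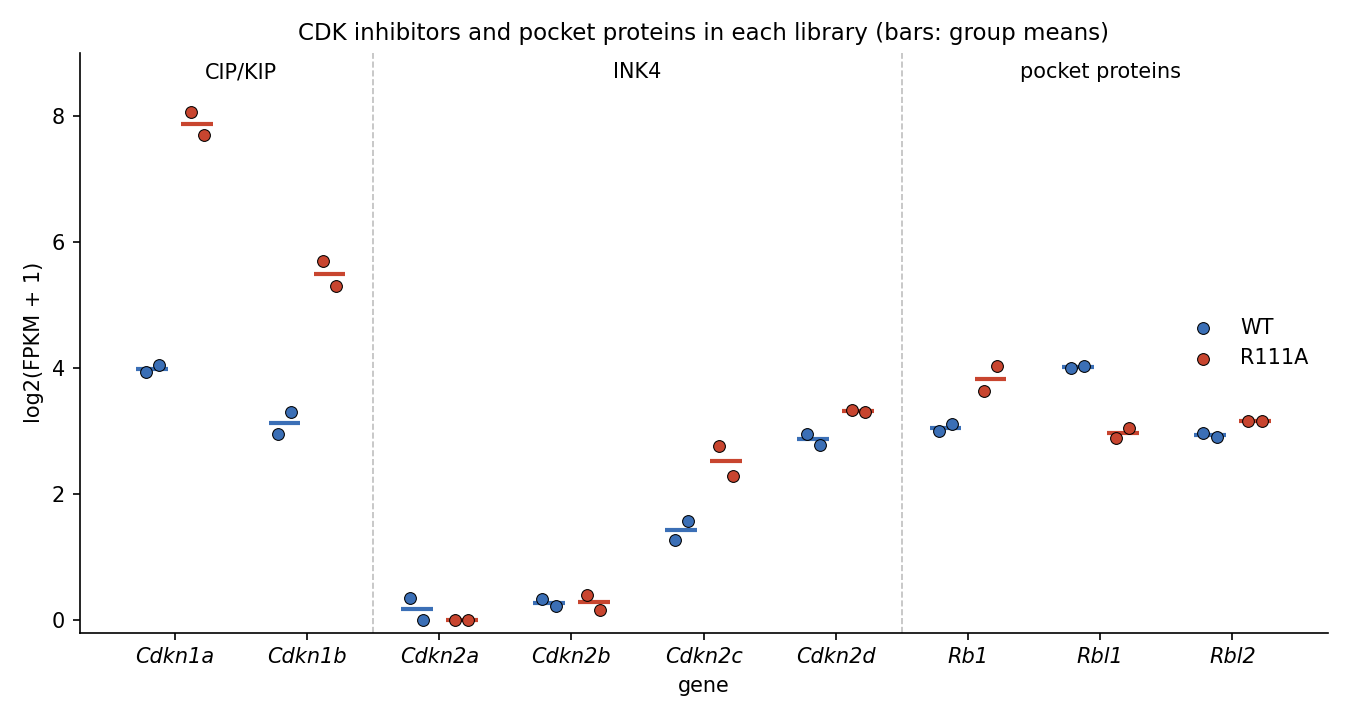
Level of each member, as log2(FPKM + 1), in the 2 WT and the 2 R111A libraries; points are libraries and bars are group means. The R111A points of Cdkn1a and Cdkn1b lie far above the WT points, those of Rbl1 lie below them, and Cdkn2a and Cdkn2b sit near 0 in both groups.

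The CIP/KIP inhibitors moved furthest. Cdkn1a, which encodes p21, was at 14.29 and 15.45 FPKM in WT against 266.09 and 206.54 in R111A. Both R111A libraries were far above both WT libraries. The mean FPKM was 15.9 times that of WT, and the log2 fold change of 3.89 (standard error, SE, 0.15; adjusted p = 2.7e-06 from limma) was the 5th highest of the 9831 genes. In WT, 68.6% and 70.1% of the genes in the table had a lower FPKM than Cdkn1a, and in R111A 98% and 97.4% did. The gene lies on chromosome 17 from 29090979 to 29100722 of GRCm38. AC167363.2, on the opposite strand and without an FPKM value, overlaps 7.68% of its exon bases.

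Cdkn1b encodes p27, which the ubiquitin ligase of SKP2 marks for destruction, so that much of its known control is after transcription. It was at 6.72 and 8.81 FPKM in WT against 50.91 and 38.36 in R111A. The groups did not overlap, and the mean was 5.75 times that of WT. Its log2 fold change was 2.38 (SE 0.18, adjusted p = 2.7e-05 from limma). Leaving out single libraries gave log2 fold changes between 3.71 and 4.07 for Cdkn1a and between 2.18 and 2.58 for Cdkn1b. From these bulk libraries, a change in the share of cells that express a gene and a change in mRNA per cell cannot be told apart.

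The INK4 genes split into a pair that was expressed and a pair that was close to 0. Cdkn2c, encoding p18, was at 1.42 and 1.97 FPKM in WT against 5.80 and 3.90 in R111A. Its R111A libraries were both higher, although they differed from each other more than the WT libraries did. The log2 fold change was 1.11 (SE 0.19, adjusted p = 0.0016 from limma), and the mean FPKM was 2.86 times that of WT. The log2 fold change ranged from 0.55 to 1.45 over the alternatives. It fell short of 2-fold without WT replicate 1 (0.96), without R111A replicate 1 (0.87), after rescaling to TPM (0.88) and with a pseudocount of 5 FPKM (0.55).

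Cdkn2d, encoding p19-INK4d, was at 6.77 and 5.88 FPKM in WT against 9.10 and 8.91 in R111A. The groups were apart by less than those of Cdkn2c on the log2 scale, with a log2 fold change of 0.45 (95% interval 0.13 to 0.78, adjusted p = 0.026 from limma). It did not reach 2-fold, and it missed an adjusted p of 0.05 without WT replicate 1 (log2 fold change 0.54, adjusted p = 0.135), without WT replicate 2 (0.36, 0.339), with no filter (0.45, 0.0561) and after rescaling to TPM (0.16, 0.412), within a range of 0.0134 to 0.412 over 14 alternatives.

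Cdkn2a was listed at 0.27 FPKM in WT replicate 1 and at 0 in the other 3 libraries. The symbol covers both p16-INK4a and p19-ARF, made from different first exons, which a value per gene does not separate. Cdkn2b, encoding p15, was at 0.26 and 0.16 FPKM in WT against 0.32 and 0.12 in R111A. Both genes fell below the filter and were not tested, and the groups of Cdkn2b overlapped. They are neighbours on chromosome 4, with 11669 bases between them.

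The reads behind such values can be estimated, since low FPKM values of genes with 1 annotated transcript fall on steps of single fragments. The steps gave about 17.9 and 17.3 M (mega) fragments for the WT libraries and 16.9 and 14.8 M for the R111A libraries. At this depth, Cdkn2a in WT replicate 1 rests on about 3 fragments and Cdkn2b on about 2 to 6 in each library. Cdkn2c, the lowest member tested, rests on at least about 20 in WT replicate 1, and Rbl1 on about 490 to 1225.

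Among the pocket proteins, the direction differed by gene, and that of Rbl2 turned with scaling. Rbl1, encoding p107, was at 14.99 and 15.42 FPKM in WT against 6.42 and 7.26 in R111A. Both R111A libraries were below both WT libraries, with a mean in WT 2.22 times that in R111A. The log2 fold change was -1.05 (SE 0.14, adjusted p = 4.1e-04 from limma). Its adjusted p stayed under 0.05 in all 14 alternatives, but it fell short of 2-fold with median-of-ratios factors (-0.97), quantile normalization (-0.98), a pseudocount of 5 FPKM (-0.77) and without R111A replicate 1 (-0.97).

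Rb1, encoding the retinoblastoma protein itself, was at 6.98 and 7.60 FPKM in WT against 11.43 and 15.30 in R111A. Both R111A libraries were higher, by a log2 fold change of 0.78 (SE 0.17, adjusted p = 0.0045 from limma). It was 0.48 after rescaling to TPM (adjusted p = 0.031 from limma) and 0.57 with a pseudocount of 5 FPKM. Without single libraries it ranged from 0.59 to 0.98. On the opposite strand, exons of Lpar6 and Rcbtb2 overlap 6.78% and 8.11% of the annotated Rb1 exon bases. Whether the counting used strand is not given in the sources used here, so reads from those bases may be shared. Lpar6 was at 3.51 and 3.39 FPKM in WT against 10.11 and 10.64 in R111A, and Rcbtb2 at 6.91 and 5.94 FPKM in WT against 5.29 and 5.18 in R111A.

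Rbl2, encoding p130, was at 6.83 and 6.48 FPKM in WT against 7.95 and 7.93 in R111A. Although both R111A values were higher, the difference was small beside the spread that limma estimates for genes of this level (log2 fold change 0.22, 95% interval -0.09 to 0.54, adjusted p = 0.20), and its sign turned after rescaling to TPM (-0.07). Exons of Aktip on the opposite strand overlap 9.17% of the Rbl2 exon bases. Aktip was lower in R111A, at 10.65 and 8.26 FPKM in WT and 5.25 and 6.05 in R111A. Gm45464, also on the opposite strand, overlaps 11.8% of the Rbl2 exon bases and had no FPKM value.

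**Figure D2:**
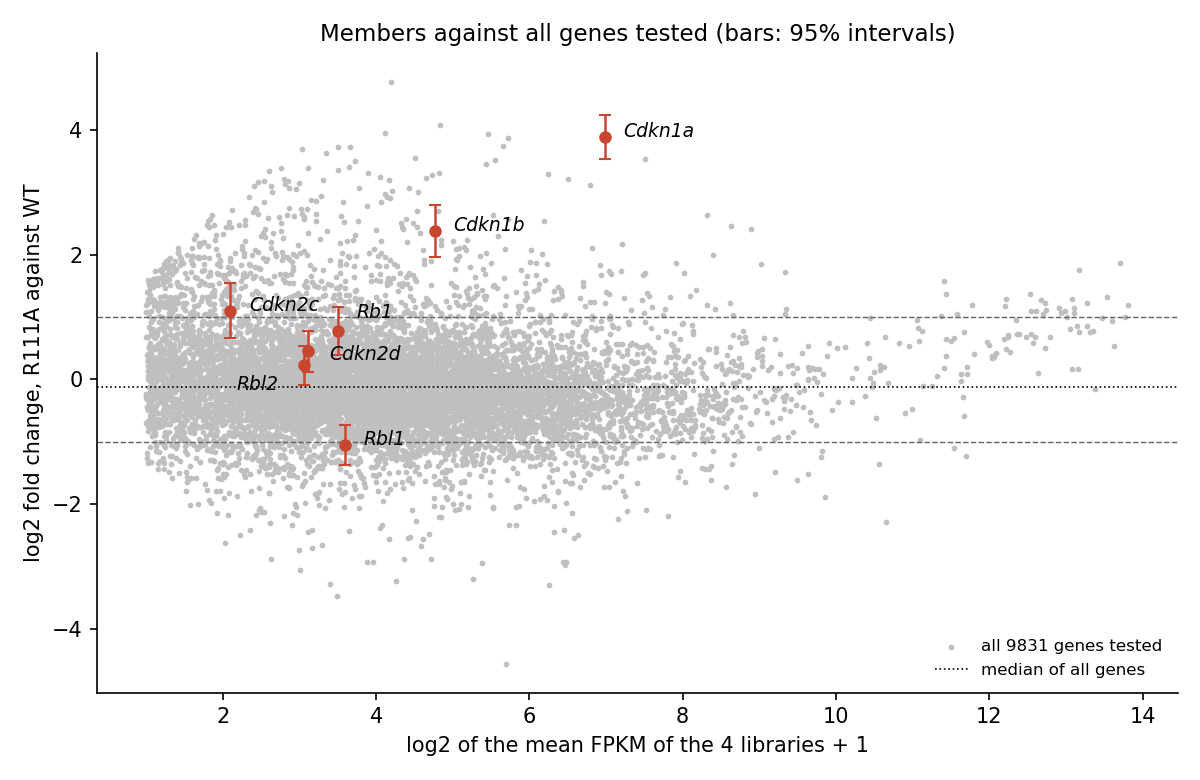
Log2 fold change of R111A against WT plotted against mean level for the 9831 genes tested (grey) and the 7 members tested (red, with 95% intervals); dashed lines mark a 2-fold change and the dotted line the median of all genes, -0.12. Cdkn1a stands at 3.89 among genes of its level, and Rbl2 lies within the bulk of all genes.

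FPKM summed to more in R111A than in WT libraries, so scaling bears on small changes. Rescaling each library to the same sum moved the median log2 fold change of all genes from -0.12 to -0.42, whereas median-of-ratios factors moved it to -0.03. Relative to that median, Cdkn1a was at 4.01 in the values as deposited and at 3.99 after rescaling to TPM. Likewise relative to it, Cdkn2d was at 0.57 and 0.58, Rb1 at 0.90 and 0.90, Cdkn2c at 1.22 and 1.30, Rbl2 at 0.34 and 0.35, and Rbl1 at -0.93 and -0.94. Rescaling multiplies the genes of a library alike, so near equality follows from its construction. Quantile normalization, which does not, gave 4.12 for Cdkn1a, 1.08 for Cdkn2c, 0.52 for Cdkn2d and -0.93 for Rbl1 relative to its median.

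Levels per length changed their order between the groups. In WT, Rbl1 (15.2 ± 0.30 FPKM, mean ± SD, n = 2) and Cdkn1a (14.9 ± 0.82) stood first and overlapped. Below them lay Cdkn1b (7.77 ± 1.48), Rb1 (7.29 ± 0.44), Rbl2 (6.66 ± 0.25) and Cdkn2d (6.33 ± 0.63), whose order is not settled, since Cdkn1b overlapped each of the other 3 and Rbl2 overlapped Cdkn2d. Cdkn2c (1.70 ± 0.39) was lower than these. In R111A, Cdkn1a (236 ± 42.1 FPKM) was followed by Cdkn1b (44.6 ± 8.87), Rb1 (13.4 ± 2.74), Cdkn2d (9.01 ± 0.13), Rbl2 (7.94 ± 0.01), Rbl1 (6.84 ± 0.59) and Cdkn2c (4.85 ± 1.34). No neighbours in that order overlapped among these 7. Rbl1 thus went from a shared first place in WT to the 6th in R111A.

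Ratios of genes within a library do not depend on how libraries are scaled to one another. The ratio of Rbl1 to Rbl2 was 2.20 and 2.38 in WT and 0.81 and 0.92 in R111A. Rbl1 mRNA was thus above Rbl2 mRNA in both WT libraries and below it in both R111A libraries, a difference in the log2 ratio of -1.41. The ratio of Rb1 to Rbl2 was 1.02 and 1.17 in WT and 1.44 and 1.93 in R111A, a difference of 0.61 in the log2 ratio, which was 0.39 without R111A replicate 2. Cdkn1a exceeded Cdkn1b by a ratio of 2.13 and 1.75 in WT and of 5.23 and 5.38 in R111A, a difference of 1.46. Cdkn2c to Cdkn2d went from 0.21 and 0.34 to 0.64 and 0.44, a difference of 0.99, which was 0.65 with a pseudocount of 1 FPKM and 0.66 without WT replicate 1. With Rbl2 as the reference, the log2 ratio rose by 3.72 for Cdkn1a, 2.27 for Cdkn1b, 1.25 for Cdkn2c and 0.26 for Cdkn2d. In each of the 11 ratios computed, all R111A libraries lay on one side of all WT libraries. The exact permutation p was 0.333 for each, the smallest that this design allows. The FPKM of single genes lay apart in this way for 78.3% of the genes tested, and the share over pairs of genes was not computed. Several of the ratios share Rbl2, so they are not independent.

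The make-up of the summed pocket protein mRNA changed as well, an observation made after the values were seen. Together Rb1, Rbl1 and Rbl2 came to 28.80 and 29.50 FPKM in WT and to 25.80 and 30.49 in R111A, so the groups overlapped. Rescaled to TPM, a comparison chosen after seeing the data, the sums did not overlap (35.93 and 35.28 in WT, 24.49 and 30.12 in R111A). The shares do not depend on scaling. Rbl1 made up 52% and 52.3% of the sum in WT and 24.9% and 23.8% in R111A. The share of Rb1 was 24.2% and 25.8% in WT and 44.3% and 50.2% in R111A, and that of Rbl2 was 23.7% and 22% in WT and 30.8% and 26% in R111A. The largest pocket protein mRNA was thus that of Rbl1 in WT and that of Rb1 in R111A.

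Another quantity added after the values were seen set the inhibitors beside their kinases. The ratios of Rbl1 to Rb1 and of Ccnd2 to Ccnd3 were likewise not planned. Cdkn1a and Cdkn1b summed to 21.01 and 24.26 FPKM in WT and to 317 and 244.9 in R111A. Cdk2, Cdk4 and Cdk6 summed to 466.02 and 501.48 FPKM in WT and to 184.44 and 175.98 in R111A. The ratio of the sums went from 0.05 in both WT libraries to 1.72 and 1.39 in R111A, a 33.1-fold difference. Most of the kinase sum was Cdk4 (424.10 and 459.99 FPKM in WT, 169.22 and 159.39 in R111A), so this is mainly a ratio to Cdk4 and not to Cdk2. These are mRNA levels per length and say nothing of the amounts of protein.

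**Figure D3:**
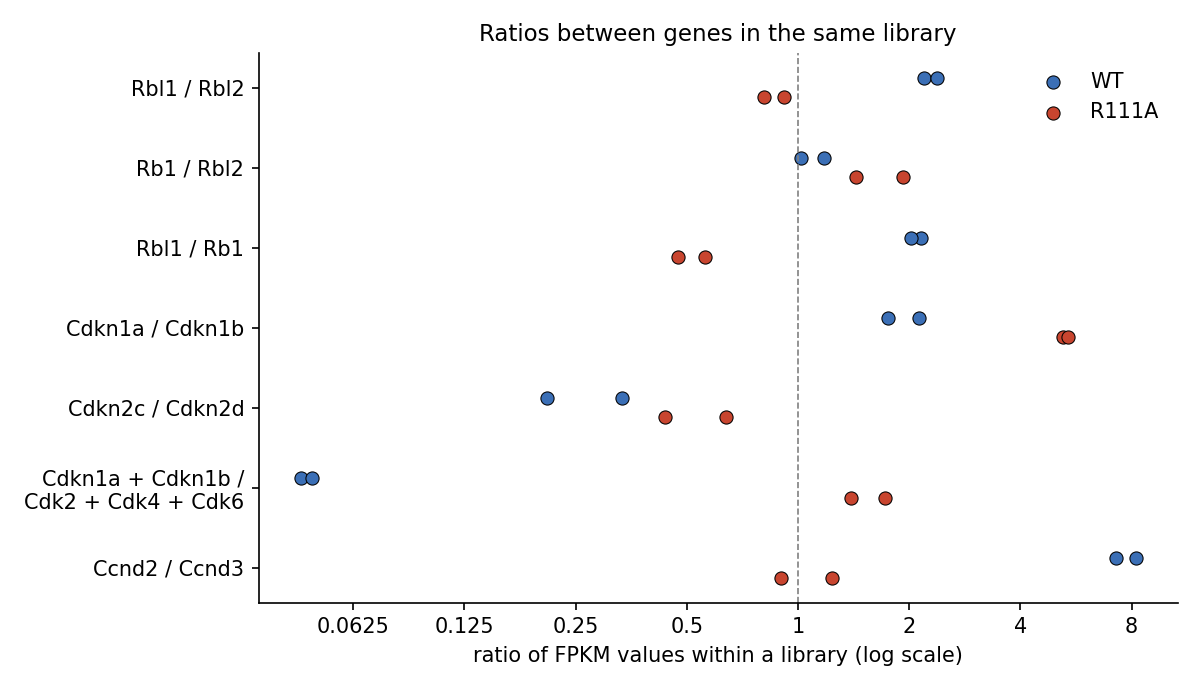
FPKM ratios between genes of the same library on a log scale, with WT libraries in blue, R111A libraries in red and a dashed line where both genes are equal. For the ratio of Rbl1 to Rbl2, and that of Rbl1 to Rb1, WT lies above 1 and R111A below it, and the sum of Cdkn1a and Cdkn1b passes that of Cdk2, Cdk4 and Cdk6 in R111A alone.

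Most of the CDKs and cyclins tested were lower. In a list of 14 genes, which holds their activators Cdc25a and Mnat1 beside CDKs and cyclins, 13 were tested, 8 (Cdc25a among them) were called lower, and the median log2 fold change was -1.22, well under the -0.12 of all genes. Ccnd2, a D-type cyclin induced by activation, was at 290.66 and 299.98 FPKM in WT against 62.30 and 74.44 in R111A (log2 fold change -2.10, adjusted p = 1.2e-05 from limma). Ccne1, encoding cyclin E1, had a log2 fold change of -1.87, Cdc25a, a phosphatase that activates CDK2, of -1.73, and Cdk6 of -1.53. Ccne2, encoding cyclin E2, was at 1.27 and 1.69 FPKM in WT against 1.46 and 1.44 in R111A. It did not pass (log2 fold change -0.01, adjusted p = 0.95 from limma). Ccnd3 went the other way and rose by a log2 fold change of 0.74 (adjusted p = 0.0022), so that the ratio of Ccnd2 to Ccnd3 went from 7.28 and 8.21 in WT to 0.90 and 1.24 in R111A. Cdk7 and Mnat1, of the CDK-activating kinase, had log2 fold changes of 0.05 and -0.19 and did not pass the test. Ccnh, of the same kinase, was lower by the adjusted p alone (log2 fold change -0.61, adjusted p = 0.0050 from limma). Ccnd1 was at or below 0.06 FPKM in each library. Of the other CDK inhibitors, Cdkn1c was at 0.63 and 0.50 FPKM in WT and 1.12 and 0.75 in R111A, and Cdkn3 reached 0.37 FPKM at most, so neither was tested.

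E2F and DP factors, the partners of the pocket proteins, were tested for 8 of 10 genes, and 4 were called lower, with a median of -0.96. E2f1 was at 8.08 and 7.97 FPKM in WT against 1.23 and 1.09 in R111A, a log2 fold change of -2.06 (adjusted p = 1.4e-05 from limma). Its dimer partner Tfdp1 fell by 2.04 on the log2 scale, from 125.73 and 130.30 FPKM to 29.29 and 31.67 FPKM. E2f3 and E2f6 had log2 fold changes of -1.35 and -1.18, while E2f5 and Tfdp2 did not pass (0.26 and -0.01). E2f4, the repressor E2F that pairs with p107 and p130, was lower by the adjusted p alone (log2 fold change -0.74, adjusted p = 0.0050).

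A list of 8 genes around DREAM, the repressor complex that p107 or p130 forms with E2F and MuvB, held 5 subunits of MuvB, its partners Mybl2 and Foxm1, and Dyrk1a, a kinase that promotes assembly of DREAM. None of the 8 was called by limma, 1 was higher and 2 lower by an adjusted p under 0.05 and by an unadjusted one alike, and their median was 0.05. The higher one was Dyrk1a (log2 fold change 0.45), and the lower ones were the subunits Rbbp4 (-0.40) and Lin9 (-0.43). Lin37 was at 18.93 and 16.17 FPKM in WT and 20.11 and 17.42 in R111A, and Lin52 at 6.61 and 7.13 FPKM in WT and 6.23 and 7.93 in R111A. The groups overlapped for both of these MuvB subunits.

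E2F-regulated replication genes were lower almost throughout. Of 22 genes, 19 were called lower, and the median was -1.75. Mcm5 and Mcm3, of the replicative helicase, had log2 fold changes of -2.93 each, Orc1, of the origin recognition complex, of -2.89, and Uhrf1, which maintains DNA methylation at the fork, of -2.87. Pcna, the sliding clamp, was an exception, at 612.53 and 648.22 FPKM in WT and 532.09 and 592.99 in R111A (log2 fold change -0.17, adjusted p = 0.29). RefSeq windows were at hand for 19 of these genes, and the E2F letters sought above were found in 9 of them, the genes named here other than Pcna included.

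Mitotic genes were mostly low in both groups at this time. Of 10 genes, 9 were tested and 2 were called lower, Top2a (log2 fold change -2.33) and Aurkb (-1.17), with a median of -0.75. Aurkb fell below the filter without WT replicate 1 and without WT replicate 2, and was not tested there. Its log2 fold change was -1.22 without R111A replicate 1 and -1.13 without R111A replicate 2. Plk1, a kinase of mitotic entry, had a log2 fold change of 0.30 and did not pass (adjusted p = 0.15). By the adjusted p alone 7 of the 9 were lower, and 1, Ccnb2, was higher (log2 fold change 0.99).

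Genes that act on p21 and p27 were read as 3 lists. Of 14 genes of their turnover, all were tested and 3 were called lower, with a median of -0.43. Dtl, which brings p21 to the CUL4 ligase during replication, was at 13.88 and 12.88 FPKM in WT against 0.57 and 0.90 in R111A, a log2 fold change of -3.06 (SE 0.15, adjusted p = 4.7e-06 from limma). Cks1b, the cofactor with which SKP2 recognises p27, fell by 2.34 on the log2 scale, and its relative Cks2 fell by 1.29. Skp2 itself was at 2.76 and 3.25 FPKM in WT against 1.33 and 1.39 in R111A, lower by the adjusted p alone (log2 fold change -0.76). Of the list, 7 were lower by the adjusted p and 1 was higher, Cdc34, at 144.51 and 179.51 FPKM in WT against 300.38 and 255.51 in R111A (log2 fold change 0.78). Skp1 and Rbx1, shared by many ligases, had log2 fold changes of -0.17 and -0.25 and did not pass.

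Of 12 transcriptional activators of CDK inhibitor genes, 10 were tested and 3 were called higher, with a median of 0.66. Klf6 was at 9.57 and 10.14 FPKM in WT against 29.68 and 31.45 in R111A (log2 fold change 1.54). Klf2, a quiescence factor, was at 24.70 and 20.88 FPKM in WT against 100.18 and 41.54 in R111A, and Egr1 at 35.09 and 31.85 FPKM in WT and 102.57 and 57.87 in R111A. Both were higher in both R111A libraries, which differed widely from each other. Without R111A replicate 1 the log2 fold change of Klf2 was 0.84, that of Egr1 was 0.77 (0.85 after rescaling to TPM), and only 1 gene of the list was called. Foxo1, Foxo3 and Foxo4, of which FOXO factors are known to activate Cdkn1b, were higher by the adjusted p alone (log2 fold changes 0.84, 0.58 and 0.64). Trp53, encoding p53, was at 107.90 and 94.85 FPKM in WT against 122.55 and 79.47 in R111A, and the groups overlapped (log2 fold change -0.04, adjusted p = 0.90). Smad3 did not pass either (-0.29).

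Of 11 repressors of CDK inhibitor genes, 3 were called lower, and the median was -0.18. By the adjusted p alone 3 others were higher, Mdm4, Mdm2 and Cbx7 (log2 fold changes 0.87, 0.59 and 0.51). Myc was at 228.22 and 203.56 FPKM in WT against 127.80 and 87.58 in R111A (log2 fold change -1.02, adjusted p = 0.0019 from limma). It fell short of 2-fold with median-of-ratios factors (-0.93), quantile normalization (-0.80), a pseudocount of 5 FPKM (-0.99), without WT replicate 1 (-0.94) and without R111A replicate 2 (-0.75). Suz12 and Ezh2, of the Polycomb complex that silences the Cdkn2a locus, had log2 fold changes of -1.34 and -1.33. Eed, the core partner of both, was at 64.76 and 66.85 FPKM in WT against 74.77 and 90.87 in R111A and did not pass (adjusted p = 0.084). Bmi1 did not pass either (log2 fold change -0.35).

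Other p53 targets were higher beside Cdkn1a. Of 18 genes, none of them a member, 17 were tested, 11 were called higher, and the median was 1.38. Bbc3, encoding the BH3-only protein PUMA, had a log2 fold change of 3.52, Phlda3, an inhibitor of AKT, of 3.29, the kinase Plk2 of 3.26 and the death receptor Fas of 2.09. Perp did not pass (0.10). Ei24 was lower by the adjusted p alone (-0.49). The p53 element sought above was found in 1 of the 15 genes of this list with a window, Ccng1.

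**Figure D4:**
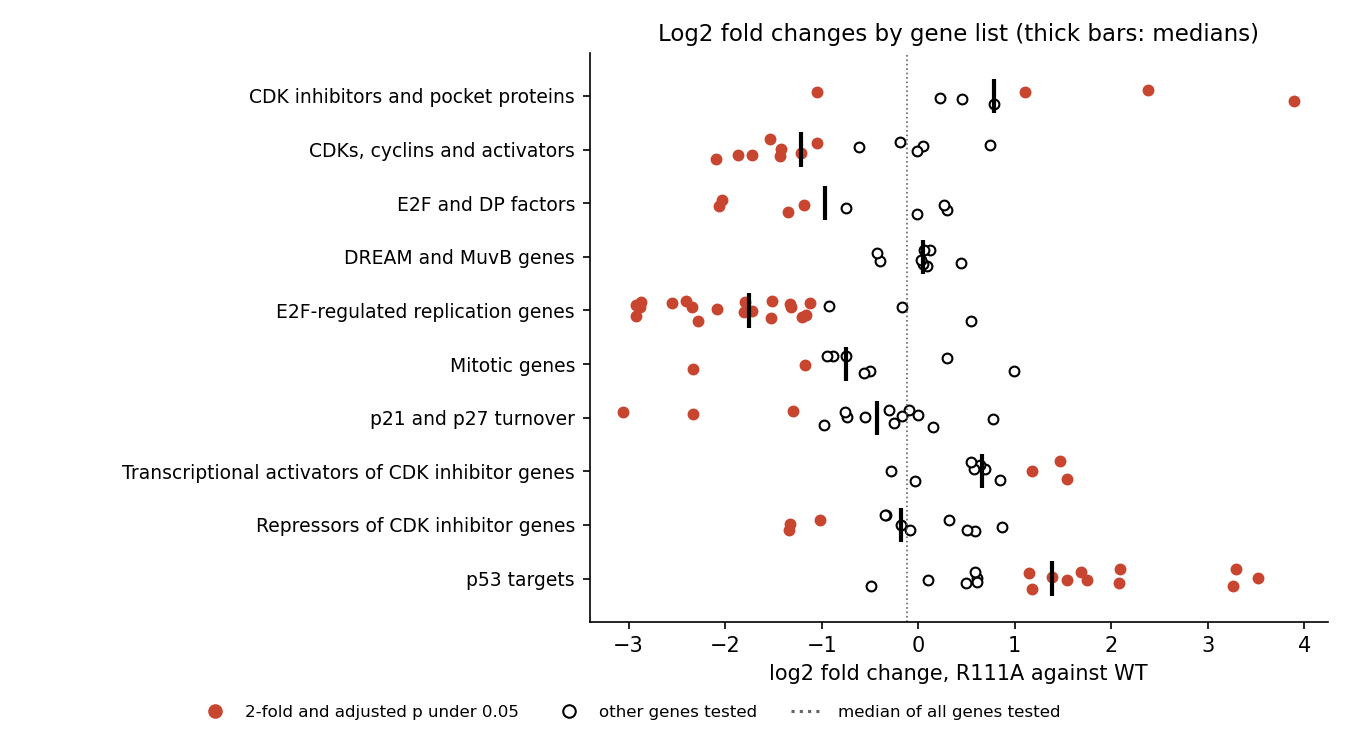
Log2 fold changes of the genes tested in the member list and in 9 lists of related genes; each point is a gene, red where called, the thick bar is the list's median and the dotted line the median of all genes, -0.12. Replication genes lie to the left (median -1.75), p53 targets to the right (1.38) and the DREAM and MuvB genes near 0.

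The genes with profiles nearest to those of the members at each end were found by Euclidean distance between mean-centred log2(FPKM + 1) values over the 4 libraries. Nearest to Cdkn1a were Rrad (distance 0.08), at 4.25 and 4.37 FPKM in WT and 93.00 and 69.71 in R111A, Gzmm (0.21) and Psrc1 (0.22). Nearest to Rbl1 were Xrcc2 (0.02), at 4.29 and 4.51 FPKM in WT and 1.47 and 1.76 in R111A, Rcn1 (0.03) and Pgap2 (0.03). With 4 libraries, such likeness rests mainly on an equal fold change.

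Markers were read to check the cell type. All 7 T cell markers in the table were expressed, with sums of 1800.76 and 1780.75 FPKM in WT and 1475.96 and 1359.22 in R111A, Cd3g being the most abundant. By the adjusted p 4 of the 7 were lower, while Cd3d was higher (log2 fold change 0.37) and Cd3e and Cd28 did not pass. Cd4 was at 157.54 and 131.28 FPKM in WT against 70.69 and 51.35 in R111A, whereas Cd8a stayed at or below 0.20 FPKM. The CD8 pair, mostly Cd8b1, summed to 7.31 and 6.76 FPKM in WT and 3.88 and 4.46 in R111A. Activation markers summed to 1006.49 and 970.13 FPKM in WT and to 846.39 and 1070.37 in R111A, with Cd69 the most abundant, so the sums overlapped. Of these 6, Cd69 was called higher, though not without R111A replicate 2 (log2 fold change 0.97) or after rescaling to TPM (0.89), and Cd44, Irf4 and Tfrc were called lower. The 5 Treg markers, led by Il2ra, summed to 198.29 and 196.65 FPKM in WT and 147.40 and 151.15 in R111A. Foxp3 was at 11.31 and 8.78 FPKM in WT against 2.86 and 1.86 in R111A, and Ctla4 was called lower as well. The other 3 did not follow, as Ikzf4 was higher by the adjusted p alone (log2 fold change 0.53) and Il2ra and Ikzf2 did not pass.

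Markers of other cells were mostly low, with higher sums in R111A. The 6 erythroid markers summed to 0.66 and 0.70 FPKM in WT and to 12.93 and 12.97 in R111A, most of it Hba-a1. Hba-a2 and Hbb-bs were at 0 in all libraries. The 6 B cell markers summed to 2.15 and 1.01 FPKM in WT and to 5.21 and 4.54 in R111A, led by Cd79a, while Ms4a1 was at most 0.23 and Pax5 at most 0.06. The 7 myeloid markers summed to 81.70 and 83.36 FPKM in WT and to 94 and 112.81 in R111A, most of it Cst3, which T cells also express, and Lyz2 was at 0.45 and 0 in WT against 3.01 and 2.37 FPKM in R111A. Adgre1, Fcgr3 and Itgam were at most 0.05 FPKM in WT and from 0.39 to 1.44 FPKM in R111A, and were not tested. The 5 NK cell markers summed to 1.14 and 1.00 FPKM in WT and to 7.83 and 5.63 in R111A, led by Eomes, with Ncr1 at most 0.30. The 5 stromal markers summed to 5.76 and 4.99 FPKM in WT and to 18.46 and 12.62 in R111A, almost all of it Pecam1, and the 3 collagen genes were at most 0.03 FPKM. The cells had been sorted, and the part that other cells, or the difference in Foxp3 and Ctla4, had in the values of the members was not tested.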

How the data were processed

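RNA-seq was made from polyA RNA of 4 libraries. According to the labels and methods, the authors filtered adaptors and low-quality bases, aligned reads to mm10 with Bowtie2 (2.4.4), estimated expression with RSEM (1.2.28) and deposited 1 FPKM value per gene and library. DESeq2, which the authors ran on counts, was not used here. The test used limma (3.58.1 in R 4.3.3, with lmFit and then trended eBayes) on log2(FPKM + 1), with p adjusted by Benjamini-Hochberg over all genes tested. The procedure was tested on simulated data of 9831 genes. Noise was normal, with the same SD in both groups, set per gene from the variance that limma fits. At most 200 genes were changed, whereas 5240 passed the adjusted p in the data. The counts that follow thus hold under limma's own assumptions and do not give the error rate in these libraries. Genes were counted there by the adjusted p alone, without the 2-fold threshold used for calls. With 200 genes changed, limma recovered 60% at 1.5-fold, with 18 false positives, and 100% at 2-fold, with 17. With no gene changed, 1 gene passed the adjusted p. Members and gene lists were chosen with earlier results of these data known. Named from each list were up to 4 called genes with the largest fold change, up to 2 of the most abundant genes past neither threshold, the genes nearest to the members at each end and the most abundant marker. Genes named beyond this rule were chosen after their values were seen. Depth was estimated from 128 to 206 values between 0.05 and 0.6 FPKM in each library, taking 300 bases off each transcript. Of these, 71.2% to 79.1% lay within 0.2 of a whole number of fragments, against 40% if spread evenly. Depth and the length taken off were fitted to these same values, so part of that excess follows from the fit. Taking off 250 to 350 bases gave 14.2 to 18.8 M fragments. The WT replicates had the same value for 0.661% of the genes tested and the R111A replicates for 0.234%, so neither pair was a copy. Overlapping exons were read from GENCODE vM21, and promoter windows from RefSeq (GRCm38.p6), in python 3.11.15. Alternatives were pseudocounts of 0.1 and 5 FPKM, no filter, a filter at 5 FPKM, TPM, median-of-ratios factors, quantile normalization, a replicate block, other eBayes settings and each library left out.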

Additional observations from a re-analysis of the deposited data

How the results depend on the processing

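Cdkn1a, Cdkn1b, Cdkn2c, Rb1 and Rbl1 kept their direction and an adjusted p under 0.05 in every alternative that gave a value; a filter at 5 FPKM left out Cdkn2c. Cdkn2d, never 2-fold, missed an adjusted p of 0.05 with no filter (log2 fold change still 0.45) and after rescaling to TPM (0.16). It also missed it with WT replicate 1 (0.54) or WT replicate 2 (0.36) left out, the ends of its range without single libraries. With a pseudocount of 5 FPKM, 788 genes and 2 members were called, against 1658 and 4. With the pseudocount of 1 FPKM and no fold threshold, 5240 genes passed the adjusted p. Leaving out single libraries gave 1648 to 1712 genes and 2 to 4 members, the lone library being assumed to vary like the pair. The pseudocount of 5 FPKM also took Ccne1 (-0.90), Cdk6 (-0.93), E2f3 (-0.67), E2f6 (-0.97) and Aurkb (-0.38) under 2-fold. After rescaling to TPM, 580 genes were called higher and 1756 lower. With a pseudocount of 1 FPKM on both values, the log2 ratio of Rbl1 to Rbl2 differed by -1.27. Some genes that had not passed changed sign. After rescaling to TPM these were Rbl2 (-0.07), Cdk7 (-0.26), E2f5 (-0.05), Lin37 (-0.23), Lin52 (-0.26), Eed (-0.01), Perp (-0.08) and Cst3 (-0.09). With median-of-ratios factors they were Tfdp2 (0.05) and Trp53 (0.06), and with quantile normalization Skp1 (0.04), Trp53 (0.21), Perp (-0.10) and Il2ra (0.13). Without single libraries, Cdk7 ranged from -0.07 to 0.16, Tfdp2 from -0.07 to 0.04, Lin37 from -0.02 to 0.20, Lin52 from -0.12 to 0.18, Skp1 from -0.41 to 0.06, Trp53 from -0.34 to 0.27 and Perp from -0.04 to 0.24. Other genes came to pass the adjusted p, after rescaling to TPM Mnat1 (-0.51), Pcna (-0.50), Skp1 (-0.51), Rbx1 (-0.58), Smad3 (-0.59), Bmi1 (-0.68) and Il2ra (-0.44), with median-of-ratios factors Eed (0.41), with quantile normalization Eed (0.56) and Cst3 (0.49), without R111A replicate 1 Trp53 (-0.34), E2f5 (0.45), Smad3 (-0.43), Eed (0.46) and Cst3 (0.39), and without R111A replicate 2 Skp1 (-0.41), Rbx1 (-0.30) and Bmi1 (-0.61). Klf2 (no filter, 1.47) and Cd8b1 (without WT replicate 1, -0.56) ceased to pass. The cause of these changes was not tested. Replicates of the groups share only a number (correlation of same-numbered deviations over genes 0.111). With it as a replicate block, 1662 genes and 4 members were called, 6 members passed the adjusted p, and no member changed its call.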
